A study of Mus musculus with 3 samples.

Results

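Genes of peptide hormone and chemokine signalling were followed through bilayered embryo-like aggregates (BELAs), cysts of visceral endoderm (VE) and cysts of epiblast (Epi) cells: the ligand genes Calca, Pthlh, Adm, Trh and Cxcl12, the receptor genes Pth1r, Calcrl and Cxcr4, the receptor accessory gene Ramp2 and the peptidase gene Dpp4. They are 10 of the 32285 genes counted, and they were chosen by their measured levels in these data, as genes that differed between lineages or completed a ligand and receptor pair, so those levels are given as a description. The cells came from E14tg2a mouse embryonic stem cells in which doxycycline switches on the endoderm factor GATA4. For BELAs, cells received 0.5 µg/ml doxycycline for 8 h and spent 16 h in N2B27 before they were seeded together and grew for 3 days. Cells for VE cysts stayed in doxycycline after the first 8 h for a further 16 h, already with FGF4, a signal that Epi cells make, at 10 ng/ml plus heparin at 1 µg/ml, and grew for 3 days with both. Epi cysts grew from uninduced cells in matrigel, first 1 day in 2i with LIF, then 3 days in N2B27. Structures were pooled into 1 library per type of aggregate. VE cysts with a visible core of other cells were avoided during picking, and Epi cysts differed from the Epi cells of BELAs in induction and matrix as well as in the absence of VE. VE cysts likewise differed from the VE cells of BELAs in the longer doxycycline and the added FGF4 and heparin as well as in having few Epi cells. The parts of these differences cannot be told apart. All cells descend from 1 engineered line, which limits them as a model of the embryo.

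Peptide hormones are cut from larger precursors and act on G protein-coupled receptors of neighbouring or distant cells. Calca encodes calcitonin and, by alternative splicing, calcitonin gene-related peptide. Calcitonin acts on the receptor of Calcr, while calcitonin gene-related peptide and adrenomedullin (Adm) act on the receptor of Calcrl, whose partner protein, RAMP2 among others, sets which hormone it binds. Pthlh encodes parathyroid hormone-related protein, whose receptor PTH1R is a known receptor of the parietal endoderm. Trh encodes the precursor of thyrotropin-releasing hormone, which acts on TRHR. CXCL12 attracts cells through CXCR4 and is also bound by the scavenger receptor ACKR3. DPP4 is a surface enzyme that trims short pieces from the start of many peptides, CXCL12 among them.

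The coding sequences of Trh and Cxcl12, both high in Epi cells, show the parts on which peptidases act. In the GENCODE M21 annotation of mm10, Trh lies on the minus strand at chr6:92242061-92244650, and its coding sequence holds 5 copies of the hormone, each with a codon for glycine and then codons for a pair of basic residues at which the precursor is cleaved. The copies are shown because each can give 1 hormone molecule. Capitals mark the 3 codons of the hormone and the glycine codon, and each name gives the first and last base counted from the start codon.
Trh copy at bases 229 to 246: CAGCATCCGGGCaaaagg
Trh copy at bases 325 to 342: CAGCACCCTGGCcgacgt
Trh copy at bases 460 to 477: CAGCACCCTGGCaggcga
Trh copy at bases 514 to 531: CAGCATCCAGGCcggagg
Trh copy at bases 607 to 624: CAGCATCCTGGCaaaagg
The 5 stretches differ from each other in at least 1 base. Cxcl12 lies on the plus strand at chr6:117168535-117181367. Its secreted protein begins at base 64 of the coding sequence, and capitals mark the 2 codons that DPP4 is known to remove from it.
Cxcl12 at bases 64 to 87: AAACCAgtcagcctgagctaccga

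Promoter sequences were compared because the endoderm was induced with a GATA factor. RefSeq promoters of GRCm38.p6, which run from 250 bases before to 50 bases after a gene's start, were found for 9 of the 10 genes, with 11 start sites in all. The GATA motif AGATAA, searched on both strands, occurred in 2 of these 11 promoters, those of Dpp4 and Calca, and in 11.2% of the 32851 promoters in the table. Both sequences are given 5′ to 3′ on the gene's strand, with the match in capitals.
Dpp4, minus strand, chr2:62412182-62412481: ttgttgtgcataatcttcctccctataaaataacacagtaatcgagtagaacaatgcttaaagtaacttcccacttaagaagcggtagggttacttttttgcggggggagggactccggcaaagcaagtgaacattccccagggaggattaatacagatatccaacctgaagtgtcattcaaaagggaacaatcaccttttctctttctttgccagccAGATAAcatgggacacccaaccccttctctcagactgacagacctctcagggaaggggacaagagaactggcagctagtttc
Calca, minus strand, chr7:114636308-114636607: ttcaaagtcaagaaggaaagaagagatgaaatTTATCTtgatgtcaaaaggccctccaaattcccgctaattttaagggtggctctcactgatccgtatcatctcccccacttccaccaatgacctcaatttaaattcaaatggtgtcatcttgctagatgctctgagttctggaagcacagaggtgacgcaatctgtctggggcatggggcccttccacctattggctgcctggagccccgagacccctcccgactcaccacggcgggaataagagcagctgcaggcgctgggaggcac
Dpp4 was higher in VE cells and Calca in Epi cells, as described next. A match of letters is no measured binding site.

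The cells were split by lineage with marker genes that are not among the 10. Barcodes were kept from 4000 genes up and with mitochondrial transcripts at 10% or less of UMIs (unique molecular identifiers, each standing for 1 captured mRNA molecule), and a cell was called VE where the UMIs of Gata6, Sox17, Dab2 and Cubn outnumbered those of Pou5f1, Sox2, Nanog and Fgf4, and Epi otherwise. BELAs held 542 VE and 868 Epi cells, VE cysts 577 VE and 48 Epi cells, and Epi cysts 1 VE and 656 Epi cells. Median depths were 90251 UMIs in VE cells of BELAs, 56914 in VE cells of VE cysts, 78973 in Epi cells of BELAs and 60131 in Epi cells of Epi cysts. No kept cell shared its barcode with another library. Of 8 VE genes outside the rule, which include the induced Gata4, all 8 were at least 2-fold higher in VE than in Epi cells of BELAs, and of 5 further Epi genes 4 were at least 2-fold lower. Cells called VE also held the genes of parietal endoderm, with a summed level of 8904 UMIs per 1000000 UMIs (CPM) for 12 genes in BELAs and 22619 CPM in VE cysts, so VE here means the side of the marker rule. With 1 library per group there was no test, and intervals (95%, exact) cover counting error only. The 3′ chemistry counts each molecule once at its end, so CPM does not scale with gene length.

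**Figure D1:**
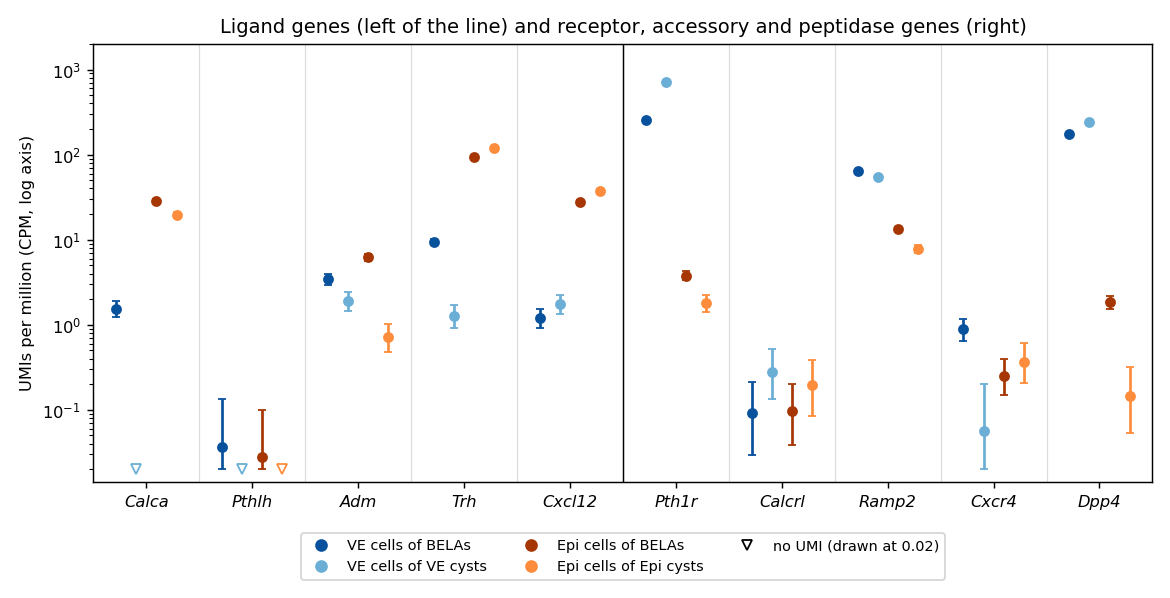
Levels of the 10 genes in CPM on a log axis, for both lineages of BELAs, VE cells in VE cysts and Epi cells in Epi cysts. Points are the levels, bars are exact 95% Poisson intervals (ends under 0.02 CPM not drawn) and open triangles mark groups with no UMI. Calca, Trh and Cxcl12 lie higher in both Epi groups, and Pth1r, Ramp2 and Dpp4 lie higher in both VE groups.

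In BELAs, 3 ligand genes stood highest in the Epi cells and the receptor, accessory and peptidase genes Pth1r, Ramp2 and Dpp4 in the VE cells. A gene was counted as apart where its CPM differed at least 2-fold after 5 CPM were added to each side, among genes with at least 5 CPM on either side. Of the 7 members that reached this level, Pth1r, Ramp2 and Dpp4 were higher in VE cells and Calca, Cxcl12 and Trh were lower, which makes 3 higher and 3 lower. Over all 10095 genes of that level, 13.8% were higher and 8.95% lower. Adm was the remaining member of the 7, and Pthlh, Calcrl and Cxcr4 lay under 5 CPM in both lineages.

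Calca held 84 UMIs (1.54 CPM, interval 1.23 to 1.91) in VE cells and 2072 UMIs (28.7 CPM, 27.5 to 30.0) in Epi cells of BELAs, an 18.6-fold lower level in VE (15.0 to 23.5). The Epi cells were the high group, and the intervals were far apart. Calca lies on the minus strand at chr7:114631478-114636357. The counts are per gene, so calcitonin and calcitonin gene-related peptide transcripts cannot be told apart. With every cell thinned to 40000 UMIs, a Calca UMI was found in 3.50% of VE cells and 60.7% of Epi cells (6.64% and 78.8% before thinning).

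Trh, the hormone precursor whose 5 copies are given above, had the highest level of any member in Epi cells. It stood at 9.45 CPM (8.65 to 10.3) in VE cells and at 93.8 CPM (91.6 to 96.1) in Epi cells of BELAs, 9.93-fold lower in VE cells (9.08 to 10.9). This level placed it at rank 1550 of the 21176 genes with a UMI in Epi cells. The share of cells did not follow the level: after thinning, 6.23% of VE cells and 40.9% of Epi cells held a UMI (11.1% and 47.9% before thinning).

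Cxcl12 stood at 1.19 CPM (0.920 to 1.52) in VE cells and at 27.9 CPM (26.7 to 29.2) in Epi cells of BELAs, which is 23.4-fold lower in VE (18.3 to 30.5). After thinning, 2.72% of VE cells and 54.3% of Epi cells held a UMI (6.09% and 69.8% before thinning). The chemokine gene was thus an Epi gene found in most Epi cells, as was Calca. Both Calca and Cxcl12 were found in 32.3% of thinned Epi cells, where the product of the single shares is 33.0%, and Spearman's rho between them was -0.02 over 801 cells of 1 library. Means were 1.16 Calca and 1.09 Cxcl12 UMIs per thinned Epi cell, so a weak relation between them could be missed.

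Adm, the gene of adrenomedullin, was low on both sides. It stood at 3.43 CPM (2.96 to 3.96) in VE cells and 6.21 CPM (5.65 to 6.82) in Epi cells of BELAs, under the 2-fold limit. Few cells carried it, with 10.7% of thinned VE cells and 13.1% of thinned Epi cells (15.3% and 19.9% before thinning). Pthlh, the ligand gene of Pth1r, had 2 UMIs in the 542 VE cells and 2 UMIs in the 868 Epi cells, under the floor of 3 UMIs in both groups, where no fold is given. The other ligand of this receptor, Pth, was at 0 UMIs in both lineages.

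Pth1r showed the highest level among the 3 receptor members. It stood at 253 CPM (249 to 257) in VE cells of BELAs and at 3.79 CPM (3.35 to 4.26) in their Epi cells, a 66.9-fold higher level in VE cells (59.3 to 75.7). After thinning, 96.9% of VE cells and 11.2% of Epi cells held a UMI (98.5% and 20.2% before thinning). Pth1r lies on the minus strand at chr9:110722085-110747145 and overlaps Myl3 on the other strand, whose reads Cell Ranger does not count for it.

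Calcrl, which needs a RAMP partner at the surface, was close to undetected. It had 5 UMIs in VE cells and 7 UMIs in Epi cells of BELAs, 0.0917 and 0.0971 CPM, and the ratio of 0.945 had an interval of 0.236 to 3.46. Its partner gene Ramp2 was well detected, with 64.1 CPM (62.0 to 66.3) in VE cells and 13.3 CPM (12.5 to 14.2) in Epi cells, 4.81-fold higher in VE (4.48 to 5.17). After thinning, 86.0% of VE cells and 40.6% of Epi cells held a Ramp2 UMI (93.9% and 57.4% before thinning). Ramp2 lies on the plus strand at chr11:101246028-101259546, where an annotated transcript runs into Vps25 on the same strand, so a share of either gene's reads is uncertain. Vps25 stood at 9.24 CPM in VE and 6.02 CPM in Epi cells.

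The calcitonin receptor gene Calcr, which is no member, was found on the side of the ligand. It stood at 0.293 CPM in VE cells and 4.33 CPM (3.86 to 4.83) in Epi cells of BELAs, under the 5 CPM needed for a count. Its partner gene Ramp3 stood at 1.63 CPM in VE cells and 11.0 CPM in Epi cells, 6.74-fold lower in VE. In single Epi cells, Spearman's rho between Calca and Calcr was -0.02 over 801 thinned cells.

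Cxcr4 was low in both lineages. It had 48 UMIs in VE cells (0.880 CPM, 0.649 to 1.17) and 18 UMIs in Epi cells of BELAs (0.250 CPM, 0.148 to 0.395), with a UMI in 3.31% of thinned VE and 1.25% of thinned Epi cells (7.38% and 1.96% before thinning). Among its relatives, Ackr3 stood at 3.72 CPM in VE cells and 0.693 CPM in Epi cells, 5.37-fold higher in VE (3.92 to 7.47), and the chemokine gene Cxcl14 at 6.82 and 2.08 CPM. Dpp4, in contrast, stood at 174 CPM (171 to 178) in VE cells and 1.84 CPM (1.54 to 2.19) in Epi cells, 94.5-fold higher in VE (79.6 to 113). Dpp4 lies on the minus strand at chr2:62330073-62412231. It was found in 95.5% of thinned VE cells and 6.74% of thinned Epi cells (98.5% and 12.0% before thinning). The gene of the enzyme was thus in the lineage next to the one that held most Cxcl12.

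No receptor for the Trh product was detected in BELAs. Trhr had 0 UMIs in every group of cells, which allows up to 0.0550 CPM in VE cells and 0.0416 CPM in Epi cells of BELAs by the floor of 3 UMIs, and Trhr2 had 0 UMIs in both lineages of BELAs. The gene of the TRH-degrading enzyme, Trhde, stood at 0.0367 CPM in VE cells and 0.0139 CPM in Epi cells.

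Low levels in 1 lineage of BELAs were set beside those of genes found mainly in the cysts of the other lineage. Whether such levels come from RNA that reaches a cell from the other lineage was not tested. For 47 genes that were over 50-fold higher in VE cysts than in Epi cysts, Epi cells of BELAs held a median of 1.71% of the VE level (quartiles 0.987 to 3.51%). Pth1r at 1.50% and Dpp4 at 1.06% lay within these quartiles, whereas Ramp2 at 20.8% lay above all 47 genes. The Ramp2 of Epi cells is also present in Epi cysts, a library with 1 VE cell. In the other direction only 4 genes could be used, and VE cells of BELAs held a median of 6.64% of their Epi level. Calca at 5.36% and Cxcl12 at 4.27% lay at or below this, and Trh at 10.1% and Adm at 55.2% lay above all 4.

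Most of the Trh, Calca and Cxcl12 UMIs in VE cells of BELAs came from few cells. Those in which more than 1 in 11 marker UMIs were Epi, a limit set by an alternative lineage rule, numbered 29 of the 542 VE cells, and their median depth was 145780 UMIs against 88039 in the other 513. These 29 cells held 438 of the 515 Trh UMIs, 67 of the 84 Calca UMIs and 33 of the 65 Cxcl12 UMIs. They held 605 of the 13805 Pth1r UMIs and 4 of the 48 Cxcr4 UMIs. In the other 513 cells, Trh stood at 1.53 CPM (1.21 to 1.91), Calca at 0.337 CPM (0.196 to 0.540) and Cxcl12 at 0.635 CPM (0.434 to 0.896). Whether the 29 barcodes hold more than 1 cell was not tested beyond Scrublet, which called 13 of all 2220 BELA barcodes doublets, 9 of them among the 1410 kept, where 39.4 of the 2220 were expected from the loading.

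**Figure D2:**
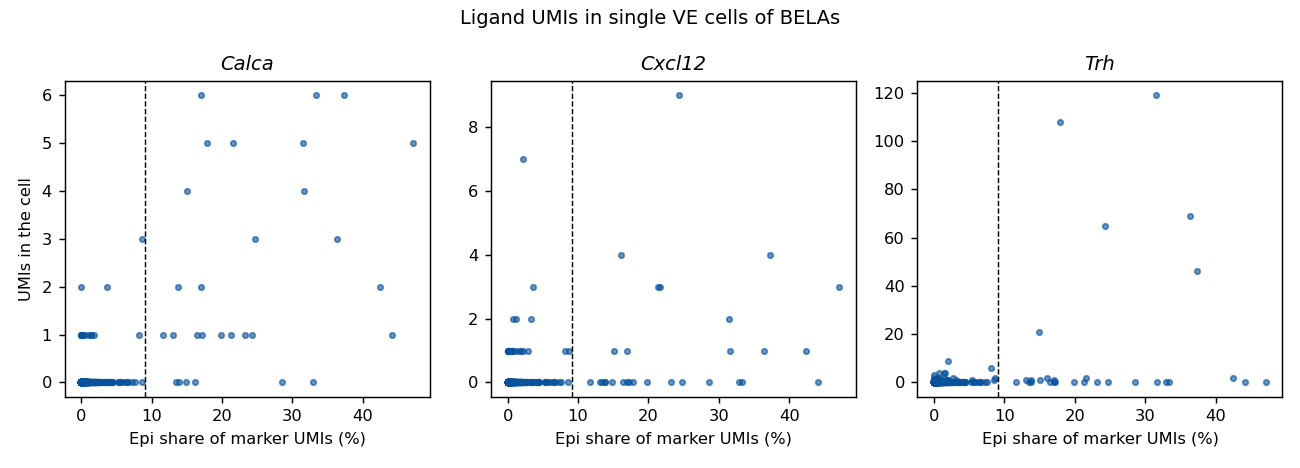
UMIs of Calca, Cxcl12 and Trh (y axis, linear, own scale per panel) in each of the 542 VE cells of BELAs against the share of marker UMIs that are Epi markers (x axis, percent). Each point is 1 cell, and the dashed line stands at 1 in 11. To the right of the line lie 29 cells, with 438 of the 515 Trh UMIs.

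The next comparison set the VE cells of BELAs against those of VE cysts, which had few Epi cells and a different treatment. Of the 4 members at 5 CPM or more in VE cells, Pth1r was at least 2-fold lower in BELAs and Trh at least 2-fold higher, so that 1 was lower and 1 higher. Over all 9795 genes compared, 4.55% were apart, 2.93% lower and 1.62% higher, and the median log2 ratio over them was -0.13. Over the 2613 genes with at least 50 CPM in both groups, as Pth1r, Dpp4 and Ramp2 had, the median was 0.02. Pth1r stood at 253 CPM in VE cells of BELAs, against 720 CPM (712 to 729) in VE cells of VE cysts, a 2.84-fold lower level in BELAs (2.79 to 2.90). In both types of aggregate it was in nearly all thinned VE cells, 96.9% in BELAs and 99.8% in VE cysts (98.5% and 99.8% before thinning).

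Dpp4 stood at 174 CPM in VE cells of BELAs, against 245 CPM (239 to 249.8) in those of VE cysts, with a ratio of 0.713 (0.692 to 0.734). Ramp2 stood at 64.1 CPM in BELAs, against 55.0 CPM (52.6 to 57.5) in VE cysts, with a ratio of 1.17 (1.10 to 1.23). Both were thus kept within 2-fold, and both ratios differed from 1 by more than counting error, which leaves variation between cultures unmeasured. Thinned shares were 95.5% in BELAs and 97.9% in VE cysts for Dpp4 (98.5% and 97.6% before thinning), and 86.0% and 79.7% for Ramp2 (93.9% and 85.8%).

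Trh was counted as higher in VE cells of BELAs, at 9.45 CPM against 1.27 CPM (0.925 to 1.70) in VE cysts, a ratio of 7.45 (5.49 to 10.3). This rests on the cells with Epi markers named above. With only cells that had at least 10 times more UMIs of 1 marker set than of the other, Trh stood at 1.53 CPM in VE cells of BELAs, against 1.28 CPM in those of VE cysts, and its log2 ratio of 1.20 became 0.06. Calca had 84 UMIs in VE cells of BELAs and no UMI in the 577 VE cells of VE cysts, at least 18.2-fold higher against a floor of 3 UMIs. None of 473 thinned VE cells of VE cysts held a Calca UMI, which by the floor of 3 counts allows a share of up to 0.634% of cells with a UMI and does not limit the cells that express it. In BELAs 0.337 CPM was left without the cells with Epi markers. Cxcl12 stood at 1.19 CPM in VE cells of BELAs, against 1.75 CPM (1.34 to 2.24) in VE cysts.

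Cxcr4 had 48 UMIs in VE cells of BELAs and 2 UMIs in VE cells of VE cysts (0.880 and 0.0564 CPM), a ratio of 15.6 with a counting interval of 4.10 to 133. The group of 513 cells without many Epi markers kept 44 of the 48 UMIs and stood at 0.873 CPM. Cells with a UMI made up 3.31% of thinned VE cells in BELAs and 0.211% in VE cysts (7.38% and 0.347% before thinning), against 1.01% of thinned Epi cells in Epi cysts (1.83% before thinning). Calcrl had 5 UMIs in BELAs and 10 UMIs in VE cysts, and Pthlh 2 UMIs and 0 UMIs. Adm stood at 3.43 CPM in BELAs, against 1.89 CPM (1.46 to 2.40) in VE cysts.

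**Figure D3:**
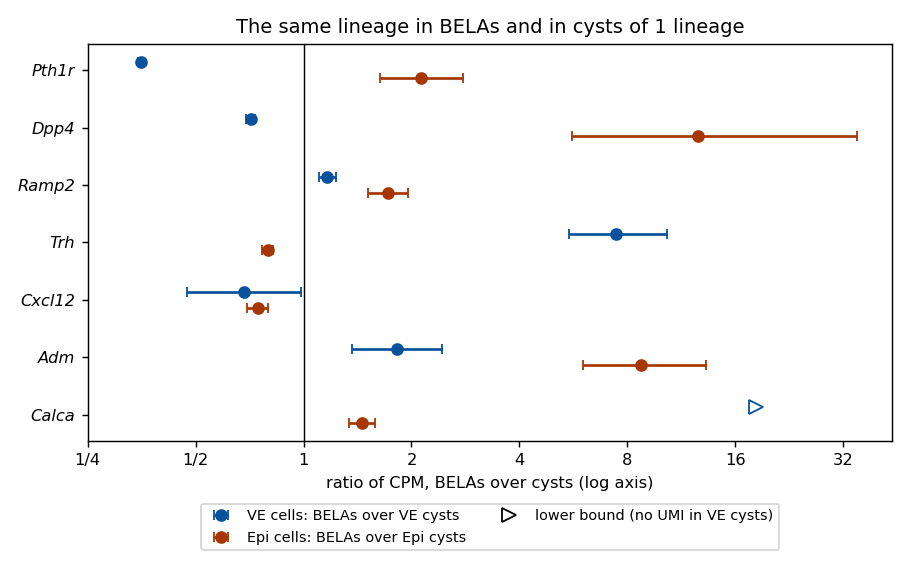
Ratio of CPM in BELAs over cysts of 1 lineage (x axis, log) for 7 members, in VE cells (BELAs over VE cysts) and Epi cells (BELAs over Epi cysts). Points are plain ratios with exact 95% counting intervals, and the open triangle is a lower bound for Calca, which had no UMI in VE cysts. Pth1r and Dpp4 lie under 1 in VE cells and above 1 in Epi cells, where their levels are under 5 CPM.

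Epi cells of BELAs and of Epi cysts both held Calca, Trh and Cxcl12. Of the 5 members at 5 CPM or more, 0 were counted as apart between the Epi cells of BELAs and those of Epi cysts. Over all 9635 genes compared, 2.58% were apart, 1.25% higher and 1.34% lower. Calca stood at 28.7 CPM in Epi cells of BELAs, against 19.7 CPM (18.4 to 21.2) in Epi cysts, a ratio of 1.46 (1.34 to 1.58). Trh stood at 93.8 CPM in BELAs, against 118 CPM (115 to 122) in Epi cysts, a ratio of 0.794 (0.765 to 0.824), and Cxcl12 at 27.9 CPM in BELAs, against 37.5 CPM (35.7 to 39.4) in Epi cysts, a ratio of 0.745 (0.696 to 0.796). All 3 thus stayed within 2-fold, Calca on the higher side in BELAs and Trh and Cxcl12 on the lower. The UMIs of Trh above all lay unevenly over the Epi cells, as given below, and counting intervals leave that spread out.

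Among the 5 members compared, Adm had the largest ratio. It stood at 6.21 CPM in Epi cells of BELAs, against 0.709 CPM (0.475 to 1.02) in Epi cysts, 8.76-fold higher in BELAs (6.01 to 13.2), yet its log2 ratio with 5 CPM added was 0.97, just under the limit of 1. It was at least 2-fold apart with 1 CPM added (log2 ratio 2.08) and with thinned cells (1.04). A UMI was found in 13.1% of thinned Epi cells of BELAs and 1.86% of those of Epi cysts (19.9% and 3.35% before thinning). Ramp2 stood at 13.3 CPM in Epi cells of BELAs, against 7.75 CPM (6.92 to 8.66) in Epi cysts, a ratio of 1.72 (1.51 to 1.96), and its thinned shares were 40.6% and 27.0% (57.4% and 36.3% before thinning).

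Pth1r and Dpp4 were low in Epi cells of either origin. Pth1r stood at 3.79 CPM in Epi cells of BELAs, against 1.79 CPM in Epi cysts, and Dpp4 at 1.84 CPM and 0.147 CPM. In BELAs these levels lay within the range of VE transcripts found in Epi cells given above, and in Epi cysts 73 UMIs of Pth1r and 6 UMIs of Dpp4 remained. Cxcr4 stood at 0.250 CPM in BELAs, against 0.367 CPM in Epi cysts, with 18 and 15 UMIs, and Calcrl at 0.0971 and 0.196 CPM, with 7 and 8 UMIs. Pthlh had 2 UMIs in BELAs and 0 UMIs in Epi cysts. The receptor gene Calcr stood at 4.33 CPM in BELAs, against 4.75 CPM in Epi cysts, a ratio of 0.912 (0.760 to 1.10).

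The 48 Epi cells in the VE cyst library gave the levels of Epi cells from a mostly endodermal culture. Trh stood there at 98.7 CPM (89.5 to 109), Cxcl12 at 26.2 CPM (21.6 to 31.5) and Calca at 10.7 CPM (7.82 to 14.2), with 425, 113 and 46 UMIs. Trh and Cxcl12 lay within counting error of the Epi cells of BELAs, and Calca lay below both other Epi groups. Ramp2 stood at 4.64 CPM (2.84 to 7.17). These cells came from 1 library, and 4 of the 48 had as many UMIs of one marker set as of the other. The 5 cells with the most Trh held 70.4% of its UMIs, and for Cxcl12 and Calca the top 5 held 54.9% and 37.0%. The levels of Trh and Cxcl12 thus rest on few cells, which counting intervals leave out.

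When the cysts were set against each other, the division of the members between lineages was the one seen within BELAs. Of 6 members at 5 CPM or more, 3 were higher in VE cells of VE cysts (Pth1r, Ramp2 and Dpp4) and 3 were lower (Calca, Cxcl12 and Trh) than in Epi cells of Epi cysts. Over all 10421 genes compared, 30.9% were apart, 18.6% higher and 12.3% lower. Pth1r was 403-fold higher (321 to 515), Dpp4 1667-fold (765 to 4542) and Ramp2 7.10-fold (6.30 to 8.02). Calca was at least 234-fold lower against the floor of 3 UMIs, Trh 93.2-fold lower (69.5 to 128) and Cxcl12 21.5-fold lower (16.7 to 28.2). This comparison shares its libraries with the 2 before it.

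Within a lineage, the members differed in how evenly cells carried them. In thinned VE cells of BELAs the 10% of cells with the most Pth1r held 28.8% of its UMIs, against 18.4% in VE cysts. For Dpp4 these shares were 21.8% in BELAs and 23.0% in VE cysts. Pth1r had a mean of 10.8 UMIs per thinned cell in BELAs and 30.3 in VE cysts. A lower mean by itself raises the share held by the top cells. The variance of Pth1r over its mean was 7.19 in BELAs and 6.36 in VE cysts. Pth1r, Dpp4 and Ramp2 were found together in 81.1% of thinned VE cells of BELAs and 78.4% of those of VE cysts, near the products of the single shares, 79.6% and 77.9%. Pth1r and Dpp4 varied little together from cell to cell, with Spearman's rho of 0.05 in BELAs and -0.15 in VE cysts.

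Among Trh, Calca and Cxcl12, Trh was spread least evenly over the Epi cells. The top 10% of thinned Epi cells held 68.6% of its UMIs in BELAs and 67.5% in Epi cysts, whereas the top 10% held 36.2% and 36.0% for Calca and 38.3% and 34.8% for Cxcl12. At least 10 Trh UMIs of 40000 were found in 98 of 801 Epi cells of BELAs (12.2%, 10.0 to 14.7%) and in 78 of 592 Epi cells of Epi cysts (13.2%, 10.6 to 16.2%), and no Trh UMI in 59.1% and 48.3%. The highest cell had 80 UMIs in BELAs and 119 UMIs in Epi cysts.

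**Figure D4:**
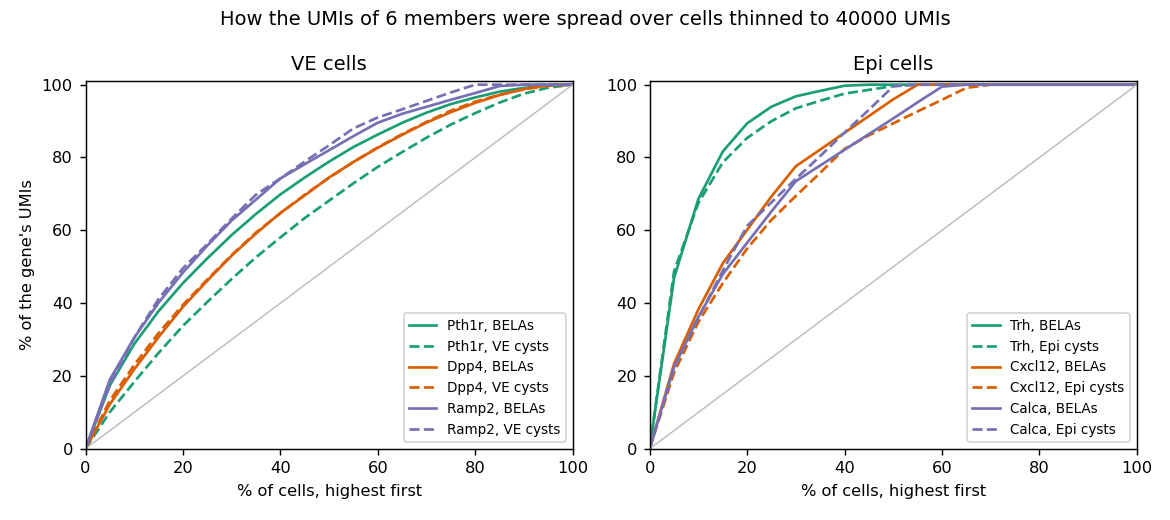
Cumulative share of a gene's UMIs (y axis, percent) held by cells ordered from the highest (x axis, percent of cells), each cell thinned to 40000 UMIs, for Pth1r, Dpp4 and Ramp2 in VE cells and Trh, Cxcl12 and Calca in Epi cells. Solid lines are BELAs, dashed lines are cysts and the grey diagonal is an even spread. The Trh curves rise fastest, with 68.6% and 67.5% of UMIs in 10% of the Epi cells of BELAs and of Epi cysts.

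The Epi cells with much Trh were set against those with none for the other ligand genes. In BELAs, thinned cells with at least 10 Trh UMIs stood at 27.3 CPM of Cxcl12 (22.4 to 33.0), and cells with no Trh UMI at 26.4 CPM (24.1 to 28.8). For Calca these levels were 21.9 CPM (17.5 to 27.1) and 30.1 CPM (27.7 to 32.7), lower in the cells with much Trh by more than counting error. Over all 801 thinned Epi cells of BELAs, Spearman's rho between Calca and Trh was -0.006. Both were found in 26.1% of these cells, where the product of the single shares is 24.8%. In Epi cysts, Cxcl12 stood at 44.9 CPM (37.7 to 53.0) in cells with at least 10 Trh UMIs and 34.1 CPM (30.8 to 37.6) in cells with none, and Calca at 20.2 and 21.2 CPM, so neither difference was the same in both types of aggregate. In BELAs, cells with at least 10 Trh UMIs stood at 47.4 CPM of Nanog, a pluripotency factor, and 410 CPM of the kinase gene Pim2, against 26.0 and 239.6 CPM in cells with no Trh UMI. In Epi cysts, cells with at least 10 Trh UMIs stood at 61.2 CPM of Nanog, 243 CPM of the activin inhibitor gene Fst and 28.8 CPM of the streak gene T, against 20.8, 112 and 15.7 CPM in cells with none. Pim2 stood there at 526 and 496 CPM. Sox2 went the other way, with 34.4 against 50.1 CPM in BELAs and 38.8 against 97.6 CPM in Epi cysts. These genes were looked up after the values of Trh were seen. By Spearman's rho over cells, the genes most like Trh were Pim2 (0.34) and the tubulin gene Tuba1b (0.31) in 801 Epi cells of BELAs and Fst (0.30) in 592 Epi cells of Epi cysts.

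Pth1r followed the parietal endoderm genes from cell to cell. VE cells were ranked by the summed level of 12 such genes, among them Sparc, Col4a1, Col4a2 and Lama1 of the basement membrane. They were divided into 3 equal parts by this rank. Across the lowest, middle and highest part, Pth1r stood at 124, 234 and 428 CPM in BELAs and at 474, 770.4 and 963 CPM in VE cysts. The highest part in BELAs, with a median sum of 13747 CPM, had less Pth1r than the lowest part in VE cysts, with a median sum of 15915 CPM. The rank correlation of Pth1r with the sum was 0.68 in 514 thinned VE cells of BELAs and 0.60 in 473 of VE cysts, as a description of cells that share a library. Many of the 12 genes also differed between the libraries. In VE cells of BELAs, 9 of them stood 2-fold or more below VE cysts and 0 above, beside 2.93% and 1.62% of all genes. Their median log2 ratio was -1.21 over the 11 compared. What part they have in the difference of Pth1r was not tested.

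Dpp4 and Ramp2 did not follow this order in both types of aggregate. Dpp4 stood at 137, 205 and 180.0 CPM from the lowest to the highest part in BELAs and at 269, 255 and 204 CPM in VE cysts. Ramp2 stood at 59.1, 61.4 and 73.3 CPM in BELAs and at 56.0, 55.6 and 53.2 CPM in VE cysts. Cxcr4 was at 1.60, 0.714 and 0.248 CPM in BELAs, with 30 of its 48 UMIs in the lowest part.

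**Figure D5:**
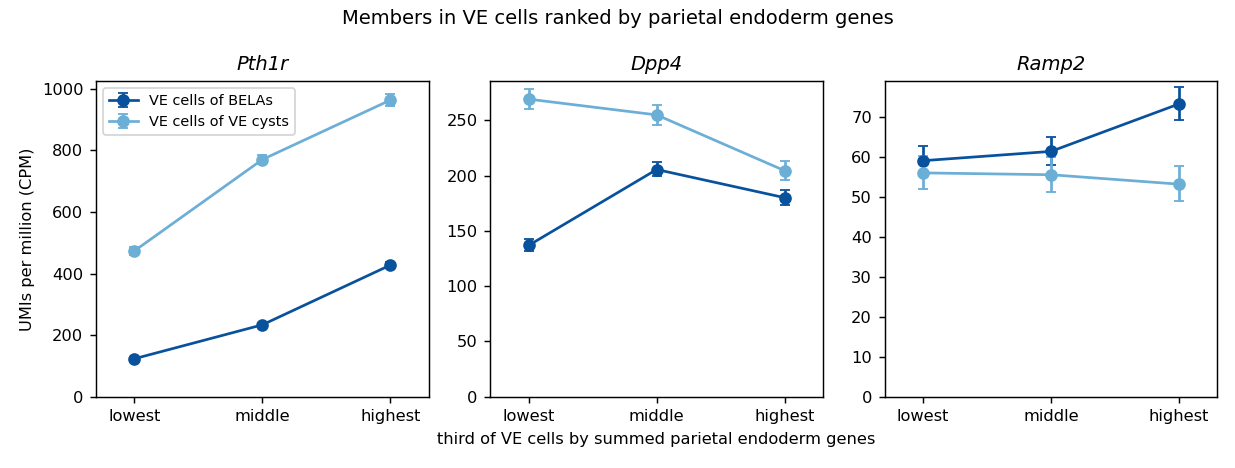
Levels of Pth1r, Dpp4 and Ramp2 in CPM (y axes from 0, own scale per panel) in 3 equal parts of the VE cells ranked by the summed level of 12 parietal endoderm genes, for BELAs and VE cysts. Points are UMIs over all UMIs of the part and bars are exact 95% Poisson intervals. Pth1r rises in both types of aggregate, from 124 to 428 CPM over the parts of BELAs and from 474 to 963 CPM over those of VE cysts.

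Some of these parietal endoderm genes were also the closest to Pth1r from cell to cell. In VE cells of BELAs they were Sparc (rho 0.62), Col4a1 (0.60), the endoplasmic reticulum gene Erp29 (0.60), Lama1 (0.59) and Col4a2 (0.59), and in VE cysts the collagen chaperone gene Serpinh1 (0.55), Sparc (0.54), Col4a1 (0.52), Col4a2 (0.49) and Chd6 (0.46). Dpp4 was closest to Cubn (0.47), Hsp90b1, Dab2, Tfec and Lgmn (0.44) in BELAs and to the cathepsin genes Ctsh (0.46) and Ctsc (0.44), Cubn (0.42), Spink1 (0.41) and Gcsh (0.39) in VE cysts. Cubn and Dab2 encode an endocytic receptor and its adaptor and were among the 4 markers that assigned cells to VE. No gene reached 0.3 for Ramp2 or Calca, and Slc2a1 (0.31) was the only one for Cxcl12, in BELAs. Correlations of sparse counts are small, and a low value is no finding.

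The VE cells of BELAs with most anterior visceral endoderm (AVE) transcripts held less of the VE members. Ranked by the sum of Otx2, Eomes, Gsc, Lhx1, Dkk1, Cer1 and Lefty1, the highest 10% were 55 cells. Of all 542 VE cells, 23 lay within 1.25-fold of the limit, above or below it. The 55 cells stood at 123 CPM of Pth1r (113 to 133), 98.8 CPM of Dpp4 (90.2 to 108) and 38.4 CPM of Ramp2 (33.2 to 44.3). The other 487 cells stood at 266, 182 and 66.7 CPM. Cxcr4 stood at 2.41 CPM (1.25 to 4.22) in these cells and 0.727 CPM (0.509 to 1.01) in the others, on 12 and 36 UMIs. Of the 29 cells with many Epi markers, 3 were among the 55 and 26 among the others, and these 3 held 108 of the 132 Trh UMIs of the 55. In a comparison made after the data were seen, without the 29 cells, Pth1r stood at 125 CPM in the remaining 52 cells and 275 CPM in the other 461, Dpp4 at 106 and 191 CPM, Ramp2 at 40.4 and 68.0 CPM, and Trh at 5.30 CPM (3.40 to 7.89) and 1.15 CPM (0.865 to 1.51). A cut of this kind marks a range of cells and not a cell type.

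The wider families around the members are given as counts, beside the 13.8% of all genes compared that were higher and the 8.95% that were lower in VE cells of BELAs. Of 8 ligand genes of the calcitonin and parathyroid hormone families, 2 reached 5 CPM in BELAs, and Calca alone was at least 2-fold apart, lower in VE. Of 8 receptor and accessory genes, 4 reached it, with Pth1r and Ramp2 higher in VE and Ramp3 lower. Of 12 genes that process prohormones, 9 were compared: 3 were higher in VE cells of BELAs, among them the carboxypeptidase gene Cpd (38.2 CPM in VE and 9.15 CPM in Epi cells) and the convertase gene Pcsk5 (5.61 and 0.236 CPM), and 1 was lower. The median log2 ratio of the 9 was 0.31, against -0.06 over all genes compared. The prohormone convertase genes Pcsk1 and Pcsk2 are known to cleave the Trh precursor. Pcsk1 stood at 0.147 CPM in VE cells and 1.82 CPM in Epi cells of BELAs, and Pcsk2 at 0.238 and 5.09 CPM.

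Among 13 peptidase genes 8 were compared in BELAs, and Dpp4, the neprilysin gene Mme and the aminopeptidase gene Enpep were higher in VE and 1 was lower, with a median of -0.01. Mme stood at 12.9 CPM in VE cells and 2.14 CPM in Epi cells, and Enpep at 11.3 and 0.0971 CPM. Both were at least 2-fold lower in VE cells of BELAs than of VE cysts, where they stood at 34.1 and 40.7 CPM, so 2 of 8 compared genes were lower and 0 higher, beside 2.93% and 1.62% of all genes. The relatives of DPP4 with a similar activity in the cytosol, Dpp8 and Dpp9, stood at 11.9 and 16.7 CPM in VE cells and 13.9 and 19.5 CPM in Epi cells. Of 20 genes of Gs and cAMP signalling, through which PTH1R and the calcitonin receptors act, 11 were compared in BELAs. The Gs subunit gene Gnas was higher in VE, at 766 CPM against 362 CPM in Epi cells, and 1 gene was lower. None was at least 2-fold apart between BELAs and VE cysts among the 9 compared in VE cells, or between BELAs and Epi cysts among the 11 compared in Epi cells. Over all genes compared, 4.55% and 2.58% were apart, so a count of 0 in lists this short says little.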

How the data were processed

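Cells of BELAs, VE cysts and Epi cysts were measured in 3 libraries with 10x Genomics 3′ v3.1 chemistry. The deposited files hold raw UMI counts, which the authors made with Cell Ranger 4.0.0 on mm10 (GENCODE vM23), with no normalization, for the barcodes that it called as cells. Here cells were filtered and assigned to a lineage by 8 markers, and levels were computed per group in CPM, a gene's share of the group's UMIs per 1000000. The kept cells held 126625916 UMIs in BELAs, 39793263 in VE cysts and 40962566 in Epi cysts, so that rare transcripts are counted less precisely in the cysts. Intervals are Poisson for levels, conditional binomial for ratios and Clopper-Pearson for shares (scipy 1.17.1). PCR duplicates are removed by UMIs, and intervals cover counting error only. Cells are not replicates, so no test was made. Shares of cells were taken after each cell was thinned to 40000 UMIs, which left out 28 of 542 VE cells of BELAs, 104 of 577 of VE cysts, 67 of 868 Epi cells of BELAs and 64 of 656 of Epi cysts. Doublets were not removed except in 1 alternative, where Scrublet in scanpy 1.11.5 called 13 of 2220 barcodes in BELAs, 4 of 881 in VE cysts and 14 of 1076 in Epi cysts. The ratio step was tested on simulated Poisson counts, which cannot check the intervals against spread over cells. The thinning step was checked to leave 40000 UMIs in each cell. Gene positions come from GENCODE M21, a different release from the authors'. The members and all gene lists were chosen with earlier results of these data known. All 10 members are described, and likeness is named from rho 0.3 up. The list genes named were at least 2-fold apart or are family members, and not all list genes that were apart are named. Alternatives covered the CPM added, thinning, a looser filter, doublets, a stricter lineage rule, scaling and the filter on genes.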

Additional observations from a re-analysis of the deposited data

Results flagged for a closer look

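In all, 3 genes went opposite ways between BELAs and cysts in the 2 lineages, each beyond counting error, and the difference itself was not tested. Pth1r had a ratio of 0.352 in VE cells (BELAs over VE cysts) and 2.12 in Epi cells (BELAs over Epi cysts), the second on levels under 5 CPM. Dpp4 had ratios of 0.713 in VE cells and 12.6 in Epi cells, where Epi cysts held 6 UMIs. In Epi cells of BELAs, Pth1r and Dpp4 stood at 1.50% and 1.06% of their VE level. Both lay within the quartiles for VE transcripts found in those cells (0.987 to 3.51%), and Epi cysts held 1 VE cell. What part such transcripts have in the ratios of Epi cells was not tested. Trh had ratios of 7.45 in VE cells and 0.794 in Epi cells, and of the 515 Trh UMIs in VE cells of BELAs 438 lay in 29 cells that also held Epi markers. In thinned Epi cells the variance of Trh over its mean was 19.5 in BELAs and 28.9 in Epi cysts. Counting intervals leave out this spread over cells, so the direction of Trh in Epi cells is not settled. Each group is 1 library, so none had others of its kind to be set against.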

How the results depend on the processing

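Each of 4 comparisons was repeated under 8 alternatives. The 6 members apart between VE and Epi cells of BELAs kept their direction and their call under all 8. Between VE cells of BELAs and of VE cysts, 2 members were apart, and 1 (Pth1r) with 20 CPM added and 1 (Pth1r) with only cells that had 10 times more UMIs of one marker set, where the log2 ratio of Trh was 0.47 and 0.06. Between Epi cells of BELAs and of Epi cysts, 0 members were apart, and 1 (Adm) with 1 CPM added and 1 (Adm) with every cell thinned. Between VE cysts and Epi cysts, 6 were apart, and 5 with 20 CPM added, where Calca had a log2 ratio of -0.99. These were the 5 calls that changed among 320 member values, of which 232 moved within counting error, 88 moved beyond it and 0 of the called ones changed sign. The counts of all genes apart differed with the CPM added: 2299 between lineages of BELAs became 3209 with 1 CPM and 1030 with 20 CPM, 446 between VE cells became 903 and 155, 249 between Epi cells became 530 and 66, and 3216 between cysts became 4174 and 1529. Leaving out a replicate was not possible with 1 library a group. No paired analysis was possible because each group has 1 library. Groups differ in depth, and at these totals Pthlh, Calcrl and Cxcr4 in VE cysts rest on at most 10 UMIs, so differences in them were not detectable or are imprecise.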

Other observations

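The single VE cell of Epi cysts held 3 Dpp4 UMIs, 2 Trh UMIs and 0 Pth1r UMIs. The intermedin gene Adm2, a relative of Adm, stood at 0.660 CPM in VE cells and 2.26 CPM in Epi cells of BELAs, and at 2.20 CPM in Epi cells of Epi cysts, with no UMI in the 577 VE cells of VE cysts.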
